A study of Mus musculus with 16 samples.

Results

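The guanylate-binding proteins (GBPs) are described here by 8 genes, Gbp2, Gbp3, Gbp4, Gbp5, Gbp6, Gbp7, Gbp8 and Gbp9, taken by symbol from the 32285 genes of the deposited count tables and read in every nucleus that passed the thresholds. Single-nucleus RNA sequencing was done on hippocampi of 16 female mice aged 9 months, with 1 library per mouse. All mice carried 1 of 4 combinations of genotype and tau state, with 4 libraries each: Ch25h+/+ mice that were Tau+ or Tau-, and Ch25h-/- mice that were Tau+ or Tau-. Ch25h encodes cholesterol 25-hydroxylase, an enzyme induced by interferon, and Tau+ marks mice of a tau line that the labels do not name, so its promoter and mutation are not given in the sources used here. No treatment was given in the labels, and Ch25h+/+ mice without tau carried neither change. Replicates were numbered in accession order, and the numbers paired no mice. Where 4 values are given for the groups, they stand in a fixed order: first Tau+ and Tau- mice of Ch25h+/+, then Tau+ and Tau- mice of Ch25h-/-.

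GBPs are large GTPases that interferons switch on, interferon gamma most of all. They bind membranes of vacuoles and bacteria that have entered a cell, assemble there into coats, and promote lysis of the compartment and activation of inflammasomes. Some members are prenylated, a lipid modification that anchors them to membranes, and in brain the family is known as part of the interferon response of glia and vessels.

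The 8 members lie in 2 clusters of the mouse genome (GRCm38). On the plus strand of chromosome 3 are Gbp5 (chr3:142493978-142522344), Gbp7 (chr3:142530342-142550149), Gbp3 (chr3:142560026-142573209) and Gbp2 (chr3:142620602-142638008). On the minus strand of chromosome 5 are Gbp8 (chr5:105014150-105139540), Gbp9 (chr5:105077630-105139539), Gbp4 (chr5:105115767-105139586) and Gbp6 (chr5:105270702-105293698). The annotated spans of Gbp8, Gbp9 and Gbp4 overlap each other, and a count for 1 of these 3 genes is uncertain where reads fell in shared sequence. Of the 50-base windows in the last 500 bases of each gene's transcripts, where 3' reads fall, 42.3% for Gbp6 were also found in another Gbp gene, most often Gbp10. The share was 14.2% for Gbp4, 7.29% for Gbp8, 4.28% for Gbp9, 3.55% for Gbp2 and 2.74% for Gbp3. Gbp5 and Gbp7 had no such window, so their counts are the least open to sharing.

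Promoter sequence from RefSeq (GRCm38.p6) was matched for 4 of the 8 members, all on chromosome 3. The windows are shown because Gbp3, Gbp5 and Gbp7 were among the members that moved together in astrocytes, and because they show which interferon motifs lie before these genes. Each runs 5′ to 3′ on the plus strand and stops before any annotated exon. Capitals mark matches to the interferon-stimulated response element (ISRE, searched as GAAA, any 2 bases, GAAA) or the gamma-activated site (GAS, searched as TTCNNNGAA), on both strands. The window of Gbp5 is chr3:142496684-142496899, that of Gbp7 is chr3:142530086-142530335 and that of Gbp3 is chr3:142559794-142560025.
Gbp5: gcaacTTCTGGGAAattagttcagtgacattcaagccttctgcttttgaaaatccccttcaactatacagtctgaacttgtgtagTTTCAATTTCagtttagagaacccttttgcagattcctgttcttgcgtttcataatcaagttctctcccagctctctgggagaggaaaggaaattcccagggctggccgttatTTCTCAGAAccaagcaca
Gbp7: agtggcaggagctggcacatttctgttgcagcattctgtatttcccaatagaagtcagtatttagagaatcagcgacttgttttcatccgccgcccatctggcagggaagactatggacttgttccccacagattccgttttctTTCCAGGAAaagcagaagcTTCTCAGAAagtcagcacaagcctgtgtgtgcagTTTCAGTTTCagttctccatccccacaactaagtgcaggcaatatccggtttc
Gbp3: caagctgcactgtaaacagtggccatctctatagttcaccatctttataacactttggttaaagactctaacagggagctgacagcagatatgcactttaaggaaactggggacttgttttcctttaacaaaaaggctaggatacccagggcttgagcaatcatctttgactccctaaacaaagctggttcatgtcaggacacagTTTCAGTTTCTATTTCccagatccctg
The Gbp5 and Gbp7 windows each held 1 ISRE and 2 GAS matches, and the Gbp3 window held 2 ISRE matches that overlap each other and no GAS match. The RefSeq start used for Gbp5 lies inside the longer GENCODE span of the gene. For Gbp2 the only match was an ISRE just past the annotated start, TTTCACTTTC at chr3:142620604-142620613. Over all 32851 RefSeq promoter windows of 300 bases, 3.44% held the ISRE letters and 8.30% the GAS letters. A match is a description of letters and not of a bound site.

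After removal of likely doublets 136828 nuclei were kept, 7601 to 10567 per library, with 40766753 to 64701045 UMIs (unique molecular identifiers, 1 per captured transcript) in the nuclei of a library. Members were sparse, with 4485 UMIs in total over all 16 libraries. Ch25h did not separate the genotype labels: its level over all nuclei was 0.474 ± 0.210, 0.195 ± 0.038, 0.451 ± 0.111 and 0.348 ± 0.101 CPM in the 4 groups (mean ± SD over 4 libraries; CPM is a gene's share of the UMIs in a sum, scaled to a common total). Gm26902, a noncoding gene on the opposite strand whose span overlaps the start of Ch25h, did differ by label without overlap, at 0.606 to 1.015 CPM in Ch25h+/+ libraries and 0.188 to 0.417 in those labelled Ch25h-/-; it was chosen after its values were seen. Whether 3' reads of Ch25h fall outside the deleted part was not tested, and the term "libraries labelled Ch25h-/-" is used for that reason. Gm43049, a gene on chromosome 3 that tracks the tau label in these libraries, stood at 74.0 ± 8.84 and 75.5 ± 3.63 CPM in the Tau+ groups and at 0.0461 and 0.0851 CPM in the Tau- groups. It lies 1.73 Mb from the nearest Gbp gene of chromosome 3 (chr3:140692038-140760704). An effect of tau and an effect of a chromosome 3 segment carried along with the tau label cannot be told apart for Gbp2, Gbp3, Gbp5 and Gbp7.

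Astrocytes gave the largest number of member UMIs, 1633 or 36.4% of all, from 10.3% of nuclei. Next came fibroblasts with 724 UMIs (16.1%, from 2.17% of nuclei), microglia with 572 (12.7%, from 4.23%) and endothelial cells with 264 (5.89%, from 0.251%). CA pyramidal neurons made up 15.9% of nuclei and gave 5.08% of member UMIs, and granule neurons of the dentate gyrus (DG) made up 16% and gave 2.56%. The family was thus read mainly in astrocytes, microglia, vessels, meningeal cells and other immune cells. Oligodendrocytes, also glia, gave 3.39% of member UMIs from 16.6% of nuclei. A class name means nuclei that resemble that type by its markers, and in the sum of a class fewer cells of a subtype and less RNA per cell cannot be told apart.

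**Figure D1:**
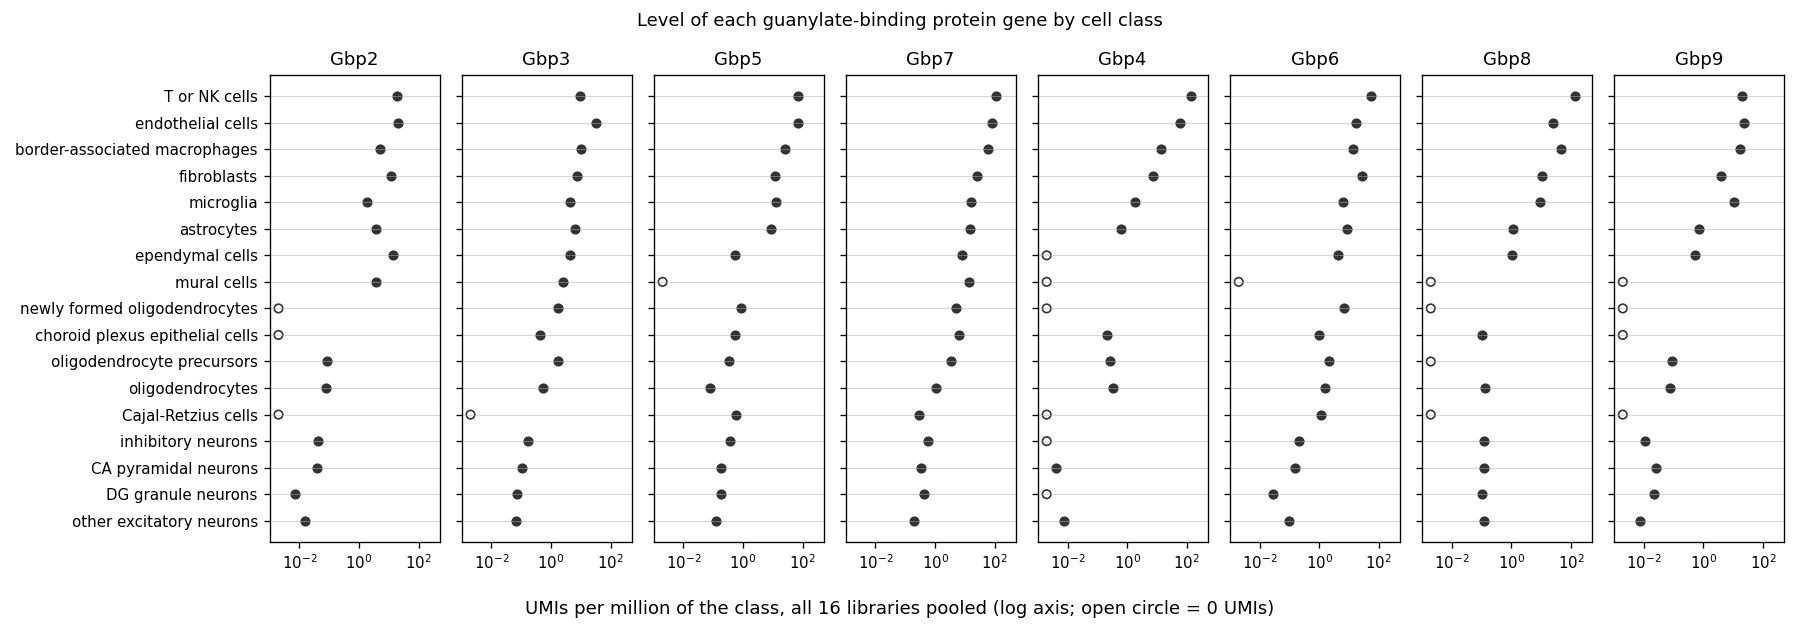
Level of each GBP gene by cell class, in CPM of all UMIs of the class over 16 libraries, on a log axis; an open circle marks a class with 0 UMIs. T or NK cells, endothelial cells and macrophages sit at the top for most members, and neurons at 0.563 CPM or less for Gbp7.

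Levels per class are pooled over all 16 libraries, and they are compared between classes for 1 gene at a time, since 3' counts do not rank genes. T or NK cells, the lymphocytes of the sample, were few (111 nuclei) but held the highest pooled level of Gbp7 (106 CPM), Gbp4 (135 CPM), Gbp8 (135 CPM) and Gbp6 (52.9 CPM). Endothelial cells, which line the vessels, had the highest pooled Gbp5 (69.2 CPM), Gbp3 (33.3 CPM), Gbp2 (19.8 CPM) and Gbp9 (23.5 CPM). The spread over libraries was as large as these levels: Gbp7 was 136 ± 236 CPM in T or NK cells and 79.9 ± 68.4 CPM in endothelial cells (SD over libraries), so neighbours at the top of the order did not differ beyond their spread. Gbp5 in T or NK cells, at 67.3 CPM pooled, was likewise next to the endothelial level. The Gbp6 level of T or NK cells rested on 1, 0, 5 and 5 UMIs in the 4 groups. Of these, 1 nucleus of Ch25h-/- Tau+ gave 4 and 1 nucleus of Ch25h-/- Tau- gave 3. The groups are unequal in these sums: they gave 38, 15, 36 and 22 of the T or NK nuclei and 7, 0, 16 and 5 of the 28 Gbp4 UMIs there, against 109, 68, 75 and 91 endothelial nuclei with 22, 7, 9 and 11.

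Microglia, the resident macrophages of brain tissue, held 16.5 CPM of Gbp7, 12.98 of Gbp5, 10.3 of Gbp9 and 9.54 of Gbp8. Border-associated macrophages, which sit along vessels and meninges, held more of Gbp7 (58.5 CPM) and Gbp8 (46.8 CPM). Astrocytes held 14.8 CPM of Gbp7, 8.95 of Gbp5, 8.73 of Gbp6, 6.49 of Gbp3 and 3.85 of Gbp2, but 1.11 of Gbp8, 0.693 of Gbp9 and 0.610 of Gbp4. The pooled levels of the chromosome 5 genes Gbp8 and Gbp9 were thus higher in microglia than in astrocytes. Astrocyte UMIs of both were uneven, at 11 and 10 for Gbp8 and 5 and 9 for Gbp9 in replicate 1 of the Tau+ groups and at 0 to 3 in each Tau- library. In Ch25h-/- Tau+, replicates 2 and 4 also held 5 and 6 UMIs of Gbp8 and 4 and 5 of Gbp9. Fibroblasts held 26.2 CPM of Gbp6 and 26.2 CPM of Gbp7. No test was made between classes.

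Shares of nuclei with at least 1 UMI were highest in the same classes. Gbp8 was read in 21.6% of T or NK nuclei (exact 95% interval 14.4 to 30.4) and Gbp4 in 18.9% (12.1 to 27.4). Gbp7 was read in 14.3% of endothelial nuclei (10.8 to 18.4), 2.38% of microglia (2.005 to 2.808) and 3.05% of astrocytes (2.77 to 3.34). DG neurons, deeper at a median of 5756 UMIs per nucleus against 1058 in T or NK cells, 1412 in endothelial cells, 1448 in microglia and 2370 in astrocytes, held a Gbp7 UMI in 0.219% of nuclei (0.162 to 0.291) and Gbp4 in 0 of 21888. Intervals cover counting error only. With each nucleus thinned to 1000 UMIs, the share with Gbp7 was 11.5% in 253 endothelial nuclei, 1.90% in 4746 microglia, 1.199% in 13757 astrocytes and 0.0412% in DG neurons. The pooled shares of astrocytes, microglia and endothelial cells were above that of DG neurons, the class given as background for free RNA. This background was not level: without thinning, the DG share with Gbp7 was 0.228, 0, 0.825 and 0.0403% in the 4 groups.

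In astrocytes Gbp2, Gbp3, Gbp5, Gbp6 and Gbp7 were higher in Tau+ mice when the effect of tau was averaged over both Ch25h genotypes. These 5 of the 8 members passed the filter on low counts (filterByExpr), and all 5 were called. Of all 12856 genes tested in astrocytes, 2.76% were called in this contrast at an adjusted p under 0.05, and 2.18% were called higher. A member could pass the filter through the Tau+ libraries alone, so the count of 5 is not read as support.

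Gbp2, a prenylated member that coats vacuoles of intracellular parasites, was at 15.1, 5.75, 1.35 and 6.43 CPM in the 4 Tau+ libraries of Ch25h+/+, and the Tau- libraries of that genotype had 0.770, 1.399, 0.461 and 0.378. In libraries labelled Ch25h-/- it was at 9.00, 2.17, 1.67 and 13.1 CPM in Tau+ and at 0, 0, 0.657 and 0.652 in Tau-. Replicate 3 of Ch25h+/+ Tau+ fell just inside the Tau- range of that genotype. Replicates 2 and 3 of Ch25h-/- Tau+ were also low, with 4 and 3 UMIs, and lay above the Tau- libraries of their genotype. The averaged log2 fold change was 3.44 (SE 0.61; edgeR quasi-likelihood, Benjamini-Hochberg adjusted p = 0.00541). Here and below, SE is the size of the log2 fold change divided by the square root of the F value of its edgeR test.

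Gbp3, which lies between Gbp7 and Gbp2b, was at 25.5, 5.75, 1.35 and 8.32 CPM in Tau+ libraries of Ch25h+/+, and Tau- libraries there had 2.31, 2.33, 0.922 and 0.378. In libraries labelled Ch25h-/- it was at 17.3, 10.9, 2.79 and 19.6 CPM in Tau+ against 2.15, 1.09, 0.985 and 0.652 in Tau-. The groups overlapped in Ch25h+/+, through replicate 3 of Tau+, and did not overlap in Ch25h-/-. The averaged log2 fold change was 3.13 (SE 0.589, adjusted p = 0.0096).

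Gbp5, which promotes assembly of the NLRP3 inflammasome, was at 16.6, 9.48, 0.449 and 5.67 CPM in Ch25h+/+ mice with Tau+ and at 0, 4.66, 4.15 and 0.378 in those with Tau-. In libraries labelled Ch25h-/- it was at 33.6, 16.3, 5.57 and 37.3 CPM in Tau+ and at 1.43, 2.72, 2.96 and 1.96 in Tau-. Replicate 3 of Ch25h+/+ Tau+ was again low, below 2 of the 4 Tau- libraries, and the groups did not overlap in Ch25h-/-. The averaged log2 fold change was 2.46 (SE 0.579, adjusted p = 0.035).

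Gbp7, which supports delivery of the NADPH oxidase and autophagy proteins to vacuoles, was at 34.4, 16.9, 5.83 and 14.0 CPM in Ch25h+/+ mice with Tau+ and at 10.0, 10.7, 9.22 and 7.94 in those with Tau-. In libraries labelled Ch25h-/- it was at 30.5, 21.7, 12.3 and 32.7 CPM in Tau+ and at 10.7, 9.79, 2.96 and 8.81 in Tau-. Replicate 3 of Ch25h+/+ Tau+ was below all 4 Tau- libraries of its genotype, and the groups did not overlap in Ch25h-/-. The averaged log2 fold change was 1.25 (SE 0.314, adjusted p = 0.0429).

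Gbp6 was at 28.2, 11.2, 4.94 and 5.67 CPM in Ch25h+/+ mice with Tau+ and at 4.62, 0.933, 2.77 and 2.27 in those with Tau-. In libraries labelled Ch25h-/- it was at 23.9, 17.9, 6.13 and 21.6 CPM in Tau+ and at 2.86, 1.09, 2.63 and 0.979 in Tau-. All 8 Tau+ libraries were above all 8 Tau- libraries, and 0.257% of the genes tested showed no overlap over both genotypes. The averaged log2 fold change was 2.72 (SE 0.436, adjusted p = 0.0037), and reads shared with Gbp10 cannot be separated.

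**Figure D2:**
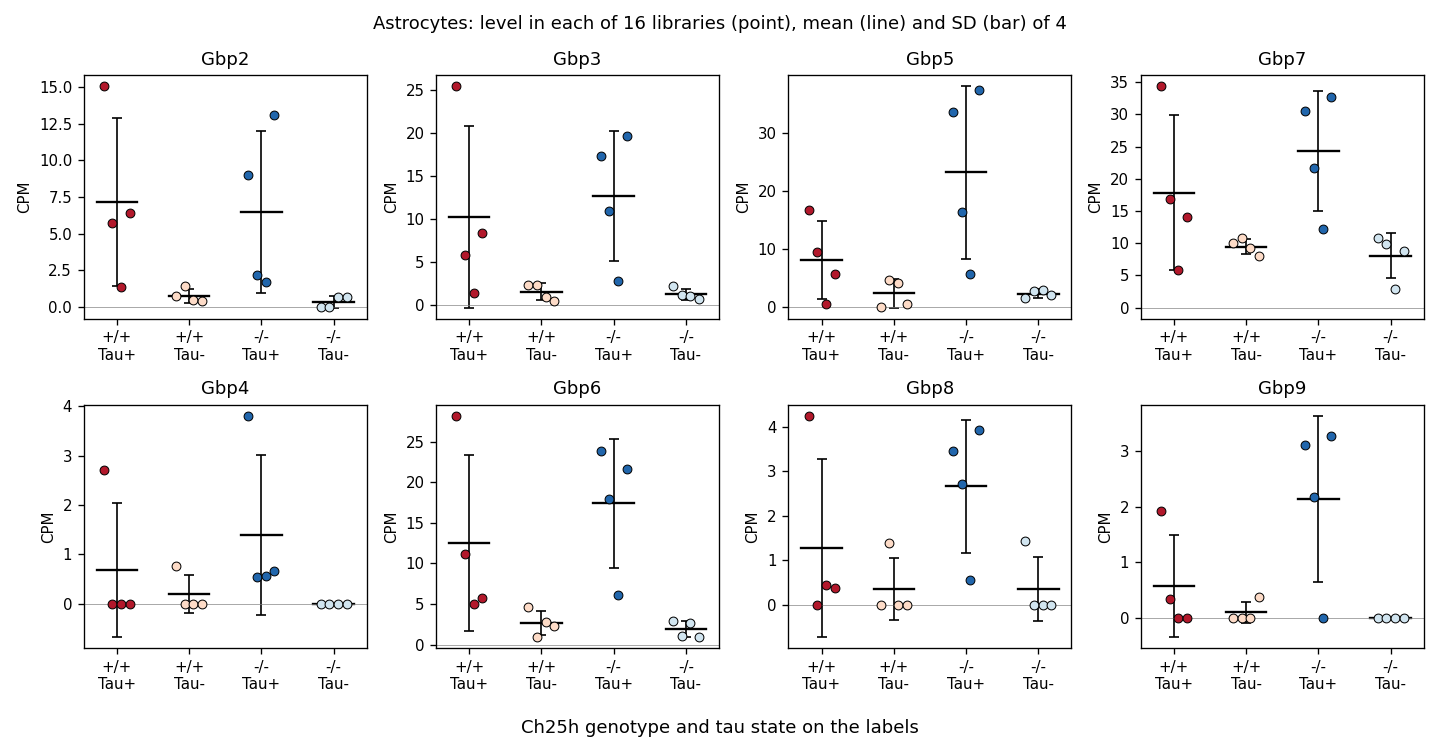
CPM of GBP genes in summed astrocyte counts, 1 point per library, by group. Replicate 3 was the lowest library of both Tau+ groups for Gbp2, Gbp3, Gbp5, Gbp6 and Gbp7.

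The remaining members were too sparse in astrocytes to be tested. Gbp4 had 7, 1, 14 and 0 UMIs in the 4 groups, Gbp8 had 13, 3, 22 and 2, and Gbp9 had 6, 1, 18 and 0. The 0 UMIs of Gbp4 and Gbp9 in 3663 astrocytes of Ch25h-/- Tau- allow a share of up to 0.0819% of nuclei with a UMI. This limit takes a floor of 3 UMIs and is not an exact interval like those above. In Ch25h+/+, Tau+ and Tau- libraries did not overlap for Gbp6 alone of the 8 members, and 6.1% of the genes tested did not overlap there. In Ch25h-/- they did not overlap for the 5 members tested nor for the sparse Gbp4, and 4.26% of the genes tested did not overlap there. Within a single genotype edgeR called no member in astrocytes, with adjusted p of 0.106 to 0.479 in Ch25h+/+ and 0.14 to 0.197 in Ch25h-/-, where it called 0.529% and 0.0233% of genes. With batch, described next, as a term, Gbp6 was called in Ch25h-/- (log2 fold change 3.05, adjusted p = 0.0327), where 0.117% of genes were, and no member in Ch25h+/+. Unadjusted p was under 0.05 for 3 members in Ch25h+/+ and for 5 in Ch25h-/-, against 11.9% and 7.92% of all genes tested. DESeq2 called 3 and 5 members, and 1.3% and 0.809% of genes.

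The labels name no batch, and the batches used here are inferred from the data. The first principal component of deviations from the group means in CA pyramidal neurons held 28.3% of the variance and was above 0 in replicates 1 and 2 and below 0 in replicates 3 and 4 of every group, with 2 libraries near 0 (-0.09 and -0.07); its sign set the batches. With replicates 1 and 2 alone (batch 1), the averaged log2 fold changes in astrocytes were 4.84 for Gbp2, 2.87 for Gbp3, 2.79 for Gbp5, 3.18 for Gbp6 and 1.26 for Gbp7, all called, where 3.28% of genes were. With replicates 3 and 4 alone (batch 2) they were 3.20, 3.25, 1.80, 1.95 and 1.04, with adjusted p of 0.126 to 0.582. The direction was the same in both batches, and none was called in batch 2. With single libraries left out, 3 to 5 of the members were called. The count was 3 without replicate 1 or 2 of Ch25h+/+ Tau+, 3 or 4 of Ch25h+/+ Tau-, 1, 2 or 4 of Ch25h-/- Tau+, or 2, 3 or 4 of Ch25h-/- Tau-.

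Astrocytes formed 2 clusters, although GBP genes were left out of the clustering. The smaller, of 2418 nuclei, had 1048 CPM of Gfap, the intermediate filament gene that rises in reactive astrocytes, against 148 CPM in the 11670 nuclei of the other. Other interferon-induced genes stayed in the clustering, and the chemokine gene Cxcl10 was among the 10 leading genes of the Gfap-high cluster, so its GBP levels are given as a description. Pooled over libraries, Gbp5 was at 36.4 CPM in the Gfap-high cluster and 2.40 in the other, Gbp6 at 37.7 and 1.82, Gbp3 at 25.1 and 2.03, Gbp2 at 16.7 and 0.790, and Gbp7 at 41.0 and 8.59. Of the 253 Gbp5 UMIs in the Gfap-high cluster, 73 and 178 came from the Tau+ groups. In the Tau- groups the mean over libraries was lower in the Gfap-high cluster for Gbp5, which had 1 UMI per group there (1.41 CPM in Ch25h-/-) against 2.32 and 2.34 CPM in the other, and for Gbp7 in Ch25h-/- Tau-, at 4.14 against 8.39 CPM. Of the sparse members, pooled Gbp4 was at 3.16 and 0 CPM, Gbp9 at 3.59 and 0, and Gbp8 at 5.61 and 0.0343.

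The share of the Gfap-high cluster among astrocytes was 30.7 ± 14.5, 7.94 ± 2.80, 23.2 ± 10.0 and 7.72 ± 3.04% in the 4 groups (mean ± SD of 4 libraries). Replicate 3 had the smallest share of both Tau+ groups, 15.9% and 8.61%. Within the Gfap-high cluster Gbp5 averaged 16.3 CPM and 67.0 CPM in the Tau+ groups of Ch25h+/+ and Ch25h-/- (SD 10.9 and 50.8; libraries from 2.88 to 28.5 and from 5.85 to 116). It had 73 UMIs among 1206 nuclei and 178 UMIs among 672 nuclei there, and each Tau- group held 1 UMI, among 279 nuclei of Ch25h+/+ and 261 of Ch25h-/-. Few nuclei gave these UMIs. Over all astrocytes, 57 nuclei of Ch25h+/+ Tau+ held 87 Gbp5 UMIs and 63 nuclei of Ch25h-/- Tau+ held 194. Gbp7 was at 33.5 ± 13.9, 14.1 ± 10.3, 54.2 ± 25.6 and 4.14 ± 5.08 CPM in the 4 groups. The means of both genes were higher in Tau+, while those of Gbp6 lay close together in Ch25h+/+: it was at 25.6 ± 14.4 CPM in Tau+ and 24.5 ± 10.0 in Tau-, against 56.9 ± 8.21 and 14.8 ± 4.25 in Ch25h-/-.

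**Figure D3:**
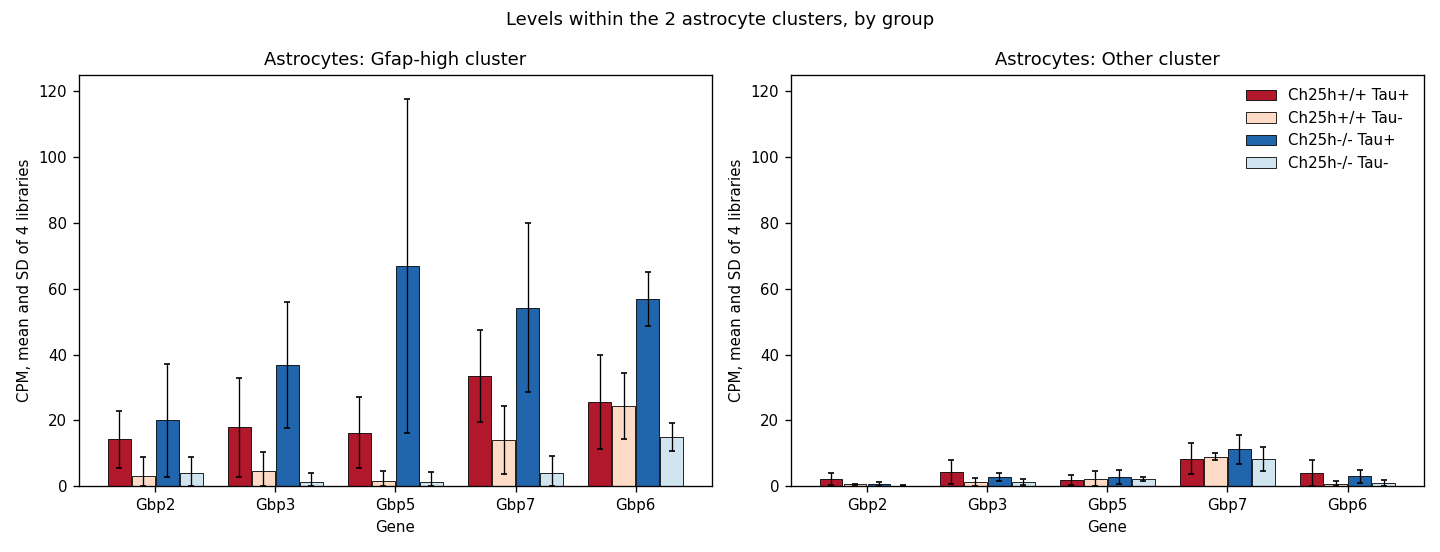
CPM of GBP genes in the Gfap-high astrocyte cluster and in the other astrocyte cluster, as mean ± SD of 4 libraries per group; lower error bars stop at 0. Levels in the Gfap-high cluster were above those of the other cluster in the Tau+ groups.

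In fits added after seeing the data, without the filter on low counts, the averaged tau effect within the Gfap-high cluster was a log2 fold change of 2.48 for Gbp7 (edgeR, adjusted p = 8.4e-08; 9 and 3 UMIs in the Tau- groups) and 1.22 for Gbp6 (0.0122; 14 and 9 UMIs). Without the filter, the spread was estimated together with genes of very few UMIs. Whether these p-values cover the spread between libraries given above was not tested, and they are not read as strength. Gbp2, Gbp3 and Gbp5 also passed the threshold, but each Tau- group held only 1 to 3 UMIs of each, so their fold changes depend on the prior count and are not given. Gbp4, Gbp8 and Gbp9 were not called there (adjusted p 0.505, 0.797 and 0.455), and 2.39% of the genes in that fit were. These nuclei were grouped on genes that include Cxcl10, and the part of that choice in the tau effect was not tested. Within the other cluster the effect was -0.06 for Gbp5, 0.12 for Gbp7, 1.54 for Gbp3, 1.93 for Gbp2 and 1.78 for Gbp6, none called (adjusted p 0.213 to 1). Gbp5 in this cluster was level across groups, at 1.999, 2.32, 2.86 and 2.34 CPM, and Gbp7 at 8.33, 9.02, 11.2 and 8.39. The difference between the clusters was not tested.

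Markers of other classes were also read in the astrocyte sums. The 8 endothelial markers summed to 8.52 to 10.05 CPM in Ch25h+/+ Tau+ libraries and 3.85 to 5.99 in the Tau- ones, and to 9.47 to 13.1 and 4.89 to 9.30 in libraries labelled Ch25h-/-. Endothelial markers were thus higher in every Tau+ library than in the Tau- libraries of the same genotype, with 0 to 2 of 8 at 0 UMIs. The 6 markers of border-associated macrophages averaged 16.4, 8.11, 12.8 and 9.60 CPM in the 4 groups (libraries from 11.3 to 19.6, 3.40 to 13.1, 8.31 to 16.4 and 8.16 to 11.1; 1 to 3 of 6 at 0). The 8 T or NK markers averaged 1.98, 1.88, 3.21 and 1.99 CPM (libraries from 1.35 to 4.46; 3 to 5 of 8 at 0), and the 10 microglial markers 129, 109, 129 and 115 CPM (libraries from 86.2 to 153, none at 0). Their part in the result was not tested.

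Gbp2b, the neighbour of Gbp2 on chromosome 3 (chr3:142594847-142619179) and no member of the 8, had 58, 0, 57 and 0 UMIs in astrocytes of the 4 groups. Against a floor of 3 UMIs over the Tau- group, its pooled level in Tau+ was at least 15.3-fold higher in Ch25h+/+ and at least 22.1-fold higher in Ch25h-/-. Gbp2b lies 1.83 Mb from Gm43049. An effect of tau and one of a carried chromosome 3 segment cannot be told apart for it either. In astrocytes edgeR called it averaged over genotypes (adjusted p = 0.00746) but in neither genotype alone (0.0987 and 0.153). Over all nuclei it had 128, 8, 111 and 6 UMIs, and it was called within each genotype, with log2 fold changes of 3.80 (adjusted p = 0.0241) and 4.09 (0.0093). Its last 500 bases held no window found in another Gbp gene. Gbp10, on chromosome 5 beside Gbp6, had 24, 2, 28 and 4 UMIs over all nuclei, and 94.5% of its windows were found in another Gbp gene, most often Gbp6.

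In microglia Gbp7 alone passed the filter, and within Ch25h+/+ it was lower in Tau+ mice than in Tau- mice. Gbp7 could pass the filter through libraries of the groups where it was higher, so its passing is not read as support. Tau+ libraries were at 10.3, 9.76, 11.3 and 9.54 CPM and Tau- libraries at 22.7, 32.7, 40.8 and 12.4 CPM. In CPM all 4 Tau+ libraries were below all 4 Tau- libraries, and 6.73% of the genes tested did not overlap in this contrast. The counts were small, with 30 UMIs in 1743 nuclei of Tau+ and 38 in 1136 nuclei of Tau-. The gap between 11.3 CPM and replicate 4 of Tau-, at 12.4, was narrow at these counts. By share of nuclei with a Gbp7 UMI the libraries overlapped, since replicate 4 of Tau- lay inside the Tau+ range. The log2 fold change was -1.46 (SE 0.39; edgeR quasi-likelihood, adjusted p = 0.0448), in a contrast where 2.19% of 8450 genes were called and 0.781% were called lower.

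In libraries labelled Ch25h-/-, Gbp7 was at 17.5, 9.09, 23.2 and 22.4 CPM in Tau+ and at 17.1, 14.6, 26.7 and 19.3 in Tau-. These groups overlapped, and the log2 fold change was -0.12 (SE 0.374, adjusted p = 0.952). The difference between the tau effects of the genotypes was 1.35 on the log2 scale (SE 0.537, unadjusted p = 0.0185, adjusted p = 1) and was not called. Averaged over genotypes the change was -0.79 (SE 0.271, adjusted p = 0.0693), where 8.99% of genes were called, and with batch as a term it was -0.80 (adjusted p = 0.0449) and called, with 11.9% of genes. Within Ch25h+/+ the fold change was -1.47 in each batch alone, with adjusted p of 0.104 and 0.533, and -1.46 with batch as a term (0.0197), where 5.08% of genes were called. It lost its call when any of 11 of the 16 libraries was left out, and when doublets were kept. These 11 were replicates 1, 2 and 4 of Ch25h+/+ Tau+, 1, 2 and 3 of Ch25h+/+ Tau-, 4 of Ch25h-/- Tau+ and all 4 of Ch25h-/- Tau-, and the count of called members was then 0.

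**Figure D4:**
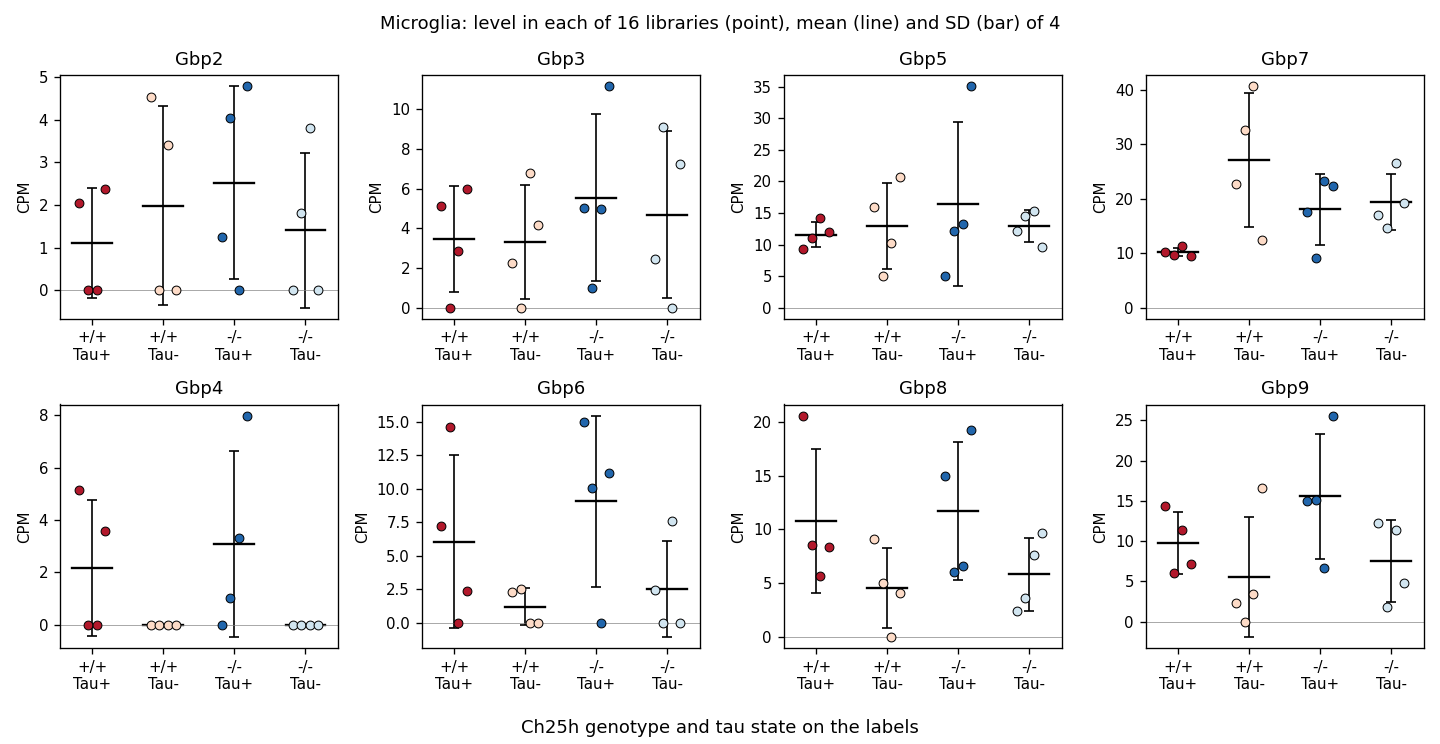
CPM of GBP genes in summed microglial counts, 1 point per library, by group. Gbp7 in Ch25h+/+ Tau+ sits between 9.54 and 11.3 CPM, below the 4 libraries of Ch25h+/+ Tau-.

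The other 7 members did not pass the filter in microglia. Gbp5 was at 11.6, 12.96, 16.4 and 12.9 CPM on average in the 4 groups, and 1 library, replicate 4 of Ch25h-/- Tau+, stood at 35.2 CPM. Gbp6 had 21, 2, 29 and 3 UMIs in the groups, and replicate 3 of both Tau+ groups had 0. Gbp4 had 8, 0, 8 and 0 UMIs. Sparse as they are, both had more UMIs in Tau+ than in Tau-, and more microglia were read there. Without the filter on low counts both were called, with averaged log2 fold changes of 2.18 for Gbp6 (adjusted p = 0.0101) and 3.72 for Gbp4 (0.0291), the second against 0 in all Tau- libraries and so dependent on the prior count. In that fit 5.16% of genes were called. Against a floor of 3 UMIs over the Tau- libraries, pooled Gbp4 was at least 2.67-fold higher in Tau+. Replicates 2 and 3 of Ch25h+/+ Tau+ and replicate 1 of Ch25h-/- Tau+ also had 0 UMIs of Gbp4, so the libraries overlapped. The pooled bound does not cover this spread.

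Gbp8 had 36, 7, 34 and 9 UMIs (means of 10.8, 4.57, 11.7 and 5.84 CPM) and Gbp9 had 29, 6, 47 and 11 (9.74, 5.56, 15.6 and 7.57 CPM). Without the filter their averaged changes were 1.13 (adjusted p = 0.116) and 1.15 (0.0973), not called. Gbp3 had 11, 4, 15 and 9 UMIs and Gbp2 had 4, 3, 8 and 2. Microglia with UMIs of 2 or more members made up 0.861, 0.176, 1.22 and 0.168% of nuclei in the groups, and microglia with any member 7.75, 6.16, 10.5 and 6.64%. Microglia of Tau+ libraries were also deeper, with library medians of 1482 to 1752 and 1336 to 1980 UMIs against 1066 to 1252 and 1180 to 1560 in Tau-, and the part of depth in these shares was not tested.

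Over all nuclei all 8 members passed the filter, and 4 were higher in Tau+ when averaged over genotypes, where 4.63% of 21392 genes were called and 3.27% were called higher. Gbp3 averaged 0.931, 0.162, 0.953 and 0.280 CPM in the 4 groups, a log2 fold change of 2.08 (SE 0.465, adjusted p = 0.0197). Gbp6 averaged 1.41, 0.356, 1.49 and 0.490 CPM, a change of 1.74 (adjusted p = 0.0288). Gbp5 (1.04, 0.440, 1.65 and 0.569 CPM) changed by 1.34 (0.0189), and Gbp7 (2.37, 0.971, 2.43 and 1.03 CPM) by 1.205 (0.0431). With single libraries left out, 2 to 6 members were called. The count was 2 without replicate 1 of Ch25h+/+ Tau+, 2 or 4 of Ch25h+/+ Tau-, 1, 2 or 4 of Ch25h-/- Tau+, or 3 of Ch25h-/- Tau-.

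Gbp2, Gbp4, Gbp8 and Gbp9 had averaged changes of 1.46, 1.396, 0.94 and 1.39 over all nuclei and were not called (adjusted p 0.0598 to 0.127). Within a single genotype edgeR called 0 of the 8 members, although all 8 in Ch25h+/+ and 4 in Ch25h-/- had an unadjusted p under 0.05. That held for 14.6% and 12.1% of all genes, while edgeR called 0.126% and 0.762%. With DESeq2 the counts of members were 2 and 1, and 2.61% and 2.87% of genes were called. Gbp3, Gbp5, Gbp6 and Gbp7 had changes of 1.64 to 2.64 in batch 1 alone, where Gbp5 and also Gbp4 were called (0.689% of genes), and of 0.65 to 1.26 in batch 2 alone, where none was called. Sums over all nuclei also move with the makeup of the sample. Microglia made up 5.06, 3.17, 5.29 and 3.45% of nuclei in the groups and T or NK cells 0.110, 0.0418, 0.111 and 0.0657%, while fibroblasts were at 3.04, 1.11, 1.59 and 3.07% and astrocytes at 11.2, 10.4, 8.73 and 10.8%. Their part in the result was not tested.

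In fibroblasts, the meningeal cells with the second largest share of member UMIs, Gbp6 and Gbp7 were tested over 15 libraries, without replicate 2 of Ch25h-/- Tau- for its few nuclei, and not called, with averaged changes of 0.39 and 0.36 (adjusted p 1 and 0.985), where 0.0206% of genes were called. No member passed the filter in neurons, oligodendrocytes or the other classes tested. Gbp7 UMIs there, in the 4 groups, were 47, 2, 29 and 3 in CA pyramidal neurons and 10, 0, 44 and 3 in DG neurons. Oligodendrocytes held 10, 1, 31 and 0, and their precursors 16, 3, 18 and 3. Choroid plexus epithelial cells held 23, 17, 8 and 11, and ependymal cells 10, 3, 0 and 2. Libraries were uneven, with 0 to 2.70 CPM in CA neurons of Ch25h+/+ Tau+, and these differences were not tested. T or NK cells, endothelial cells, border-associated macrophages and newly formed oligodendrocytes had too few nuclei per library for a test, so the classes with the highest pooled levels gave no comparison.

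No member was called for the Ch25h genotype. In Tau+, 0 of 16 tests of members over microglia, astrocytes, fibroblasts and all nuclei were called by edgeR, 3 had an unadjusted p under 0.05, and the lowest adjusted p was 0.844. In Tau-, 0 of 16 were called and 0 had an unadjusted p under 0.05. The interaction of tau and Ch25h was called for 0 of 16, with 1 unadjusted p under 0.05, for microglial Gbp7, where 3.49% of genes had one. DESeq2, run for these contrasts in microglia, called 0 members. Few genes of any kind were called for Ch25h: 0.014% over all nuclei in Tau+, and 0.00467% over all nuclei and 0.0103% in fibroblasts in Tau-. In the remaining fits of these contrasts 0% of genes were called. Astrocyte Gbp5 averaged 23.2 ± 14.9 CPM in Ch25h-/- Tau+ and 8.06 ± 6.81 in Ch25h+/+ Tau+, a log2 change of 1.53 (SE 0.633, unadjusted p = 0.0295, adjusted p = 1). Fibroblast Gbp6 averaged 39.0 ± 29.4 and 16.5 ± 9.44 CPM in the same groups (SD, n = 4), a change of 1.56 (SE 0.484; edgeR, unadjusted p = 0.00421, adjusted p = 1), and the libraries overlapped. Microglial Gbp7, at 18.1 ± 6.49 and 10.2 ± 0.799 CPM, had a change of 0.78 (edgeR, unadjusted p = 0.0443, adjusted p = 1). Of all genes tested for Ch25h in Tau+, 3.03% in astrocytes, 3.03% in fibroblasts and 3.02% in microglia had an unadjusted p under 0.05.

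Genes of the interferon pathways were read beside the members, from lists chosen with earlier results of these data known. In microglia, for the averaged tau effect, 460 of 8450 genes were higher and 300 lower, with a median log2 change of 0.00149. Of 4 other interferon-inducible GTPases tested, 3 were higher and 0 lower, with a median of 1.25: Gm4951 by 1.79 (adjusted p = 0.0106), Gvin1 by 1.48 (0.0119) and Irgm1, an immunity-related GTPase that acts with GBPs at vacuoles, by 1.02 (0.0197). Of 8 genes of the interferon gamma receptor and its signalling, 4 were higher and 0 lower, with a median of 0.388. Among them were Nlrc5, the activator of MHC class I genes, by 2.89 (0.00234), and Irf8, a transcription factor of macrophages, by 0.38 (0.0373).

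Of 6 type I interferon genes tested in microglia, 3 were higher and 0 lower: Stat2 by 1.29 (adjusted p = 0.0294), Irf9 by 0.90 (0.000943) and the receptor gene Ifnar1 by 0.44 (0.0446). Stat2 and Irf9 are parts of the complex that binds the ISRE motif. None of 7 inflammasome genes, 8 autophagy genes and 3 prenylation genes tested was called. Ifng itself had 2, 1, 1 and 2 UMIs over all nuclei of the groups, so a difference was not detectable at this depth.

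In astrocytes, where the lists were added after seeing the data, 280 genes were higher and 75 lower of 12856, with a median of -0.00154. Of 5 other interferon-inducible GTPases, 4 were higher, with a median of 3.76: Gm4951 by 4.45 (adjusted p = 0.0242), Iigp1 by 3.76 (0.0453), Irgm2 by 2.08 (0.0104) and Irgm1 by 1.95 (0.0185). Of 8 interferon gamma genes 1 was higher, Nlrc5 by 2.49 (0.0151), while Irf1 had a change of 0.90 (0.0638) that missed the threshold. Of 6 type I interferon genes 2 were higher, Irf9 by 1.19 (0.0036) and Stat2 by 0.97 (0.0283). None of 2 inflammasome, 10 autophagy and 5 prenylation genes tested was called.

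Across the 16 astrocyte libraries, members had a Pearson r between 0.749 (Gbp5 with Gbp6) and 0.914 (Gbp2 with Gbp3) on the log2(CPM + 1) scale. The genes most like each member were Gm4951 for Gbp3 (r = 0.978), Rnf213 for Gbp6 (0.956), Gbp2b for Gbp2 (0.954), Xaf1 for Gbp7 (0.909) and 5430427M07Rik for Gbp5 (0.882). In microglia the genes most like Gbp7 included Erlec1 (r = 0.805) and Irgm2 (0.80). These points share library, depth and group, and the values are descriptions.

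Genes around the members, other than Gbp genes, were read for the averaged tau effect. Gbp2b, which lies among the chromosome 3 members, is therefore not in the counts below. For this effect edgeR called it higher in astrocytes (adjusted p = 0.00746) and over all nuclei (log2 fold change 3.945, adjusted p = 0.000384). It was also called higher in fibroblasts (edgeR, log2 fold change 5.16, adjusted p = 0.0488). Fibroblasts held 27, 0, 31 and 1 UMIs of Gbp2b in the 4 groups, and microglia 8, 0, 12 and 0. In both classes all Tau+ libraries were above all Tau- libraries in CPM. Within 1 Mb of the chromosome 3 members, 6 of 19 genes were tested in astrocytes and 0 were called, while in microglia 2 of 4 tested were lower in Tau+, Unc5c by -0.96 (adjusted p = 0.0183) and Pdlim5 by -0.43 (0.0333). Unc5c was also lower in inhibitory neurons, by -0.91 (adjusted p = 2.22e-05; 1 of 7 genes tested), and over all nuclei, by -0.44 (0.000467; 1 of 12). Within 1 Mb of the chromosome 5 members, 14 of 25 genes were tested in astrocytes and 0 were called, and in microglia 2 of 11 were called, Spp1 higher by 4.92 (0.0415) and Sparcl1 lower by -0.83 (0.00289).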

How the data were processed

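Nuclear RNA of 16 hippocampi was read with the v3.1 chemistry of 10x Genomics, which captures 3' ends, per the labels' protocols. The deposited files hold UMI counts per gene and barcode, not normalized. The submitters' processing notes name Cell Ranger 3.1.0, Seurat and the build mm10, while the file headers name Cell Ranger 4; whether intronic reads were counted is not given in the sources used here. The members and all lists were chosen with earlier results of these data known.

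Barcodes with at least 500 UMIs, at least 300 genes and at most 5% mitochondrial UMIs were kept (147873). Scrublet removed the top-scoring 0.8% per 1000 nuclei (11045). Nuclei were clustered with scanpy 1.11.5 (Leiden, resolution 1, leidenalg 0.10.2; Python 3.11.15) on 2991 variable genes without Gbp genes, and clusters were named from at least 3 fixed markers at 2-fold or more; unnamed clusters held 10816 nuclei. Library totals were 51270831 to 84870650 UMIs. Of 120 library pairs each shared 8 to 36 barcodes, and pairs within groups differed by a chi-square per degree of freedom of 7.35 to 53.97, so no library was a copy.

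Counts were summed per library and class and tested with edgeR 4.0.16 (R 4.3.3; quasi-likelihood, TMM, filterByExpr, robust, 1 mean per group) over the libraries with at least 10 nuclei of a class, where every group had at least 3 of them; astrocytes, microglia and all nuclei used all 16. Two-sided p-values were adjusted by the Benjamini-Hochberg method over all genes of a class and contrast; genes under 0.05 are called. The fits were tested on simulated data. The labels do not say that replicates came from separate litters or preparations. Named beside the members were other Gbp genes, up to 3 genes per pathway list and direction with the largest called changes in microglia, the 3 genes most like a tested microglial member, and up to 3 called neighbours; astrocyte genes were named after seeing their values. Some genes that this rule names are not reported here. Alternatives were DESeq2 1.42.0, no filter, batch terms, 1000 UMIs per nucleus, kept doublets and each library left out.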

Additional observations from a re-analysis of the deposited data

Results flagged for a closer look

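In 64 groups of 4 libraries tested, 3 held a library far from the other 3, where chance gives about 1 in 20, and all 3 were sums over all nuclei. Gbp4 in Ch25h+/+ Tau- was at 0.2425 CPM in replicate 3 and at 0.01836 to 0.0432 in the others. Gbp6 in Ch25h-/- Tau- was at 0.1629 CPM in replicate 2 and at 0.5749 to 0.6207 in the others. Gbp9 in Ch25h+/+ Tau+ was at 0.5184 CPM in replicate 1 and at 0.1997 to 0.2405 in the others.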

How the results depend on the processing

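No paired analysis was possible because replicate numbers were given in accession order and the labels pair no samples; the batches read from the data (replicates 1 and 2 against 3 and 4) were fitted as a term. Numbers here count the 8 members called for the tau effect. In microglia of Ch25h+/+ the count of 1 became 0 in batch 1 alone, batch 2 alone and with doublets kept, and 0 to 1 with single libraries left out. Averaged over genotypes in microglia, 0 became 2 without the filter, 1 with batch as a term and 0 to 1 with libraries left out. In astrocytes of Ch25h+/+, 0 became 3 with DESeq2, 1 in batch 1 alone, 1 in the Gfap-high cluster without the filter and 0 to 3 with libraries left out (3 without Ch25h+/+ Tau+ replicate 3). In astrocytes of Ch25h-/-, 0 became 5 with DESeq2, 1 with batch as a term, 1 in batch 1 alone, 4 in the Gfap-high cluster without the filter and 0 to 4 with libraries left out (4 without replicate 3 of Ch25h-/- Tau+, 3 without replicate 1 and 1 without replicate 3 of Ch25h+/+ Tau+). Averaged in astrocytes, 5 became 0 in batch 2 alone, 0 in the other cluster with and without the filter, and 3 to 5 with libraries left out; it was 3 without Ch25h+/+ Tau+ replicates 1 or 2, Ch25h+/+ Tau- 3 or 4, Ch25h-/- Tau+ 1, 2 or 4, or Ch25h-/- Tau- 2, 3 or 4. Over all nuclei, 0 became 2 in Ch25h+/+ and 1 in Ch25h-/- with DESeq2. Averaged over all nuclei, 4 became 2 in batch 1 alone, 0 in batch 2 alone and 2 to 6 with libraries left out; it was 6 without replicate 3 of Ch25h+/+ Tau- and 2 without Ch25h+/+ Tau+ 1, Ch25h+/+ Tau- 2 or 4, Ch25h-/- Tau+ 1, 2 or 4, or Ch25h-/- Tau- 3. The averaged Gbp5 change in astrocytes reversed to -0.057 in the other cluster without the filter. Batch and cluster settings fit fewer libraries or nuclei; the cause was not tested otherwise. Of the planned fold changes of single genes, 1533 kept their direction and side of the threshold, 34 passed it newly and 83 no longer passed it. No value could be had in microglia at 1000 UMIs per nucleus, or in the Gfap-high cluster with the filter, since no member was tested there. The cluster settings were chosen after seeing the data. Sparse UMIs limit Gbp4, Gbp8 and Gbp9 in every glial class, and classes under 10 nuclei per library gave no test.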
